A study of Homo sapiens with 6 samples.

Results

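Surface antigens by which leukaemia stem cells and blasts are recognised were examined in MV4-11 cells, an established human acute myeloid leukaemia (AML) line, after treatment with WNK463, an inhibitor of the WNK kinase family. The 10 genes (CD34, KIT, CD38, IL3RA, IL2RA, CD44, CD47, CD96, CLEC12A and CD86) were taken by symbol from a table of 20348 genes. They occupied 11 of its rows, because IL3RA stood on 2. Cells were given 1 μM WNK463 or kept as blank control (Ctrl) for 48 h, and RNA was sequenced from 3 samples of each group. All 6 samples came from this single line, and no source used here states whether the samples of a group were separate cultures, so the p-values measure the spread between these samples, which may be technical. The labels give no batch or date. The study asked which molecular changes accompany the growth inhibition of AML cells by WNK463. Total counts lay between 14915745 and 17411780 per sample, and replicates of a group varied beyond counting error (chi-square over its degrees of freedom, 2.64 to 7.13).

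Leukaemic blasts are classified by the proteins on their surface. CD34 and KIT mark immature cells, and primitive leukaemic cells are often described as CD34+ and CD38-. Several other antigens, among them IL3RA (CD123), CD44, CD47, CD96 and CLEC12A, have been followed as markers of leukaemia stem cells or pursued as targets of antibodies, while CD86 is a costimulatory ligand found on monocytic blasts and antigen-presenting cells. Only RNA was measured, so protein at the cell surface is not known from these data. In bulk samples a change in the share of cells that express a gene and a change in RNA per cell cannot be told apart.

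IL3RA, IL2RA and CD86 had the largest fold changes among the 10 genes, and the 250 bases before their annotated start sites are therefore shown, from RefSeq on GRCh38.p14. They are written 5′ to 3′ on the strand of the gene. Capitals mark every match, on either strand, to the TATA box TATAAA, the box CCAAT and the SP1-type GC box GGGCGG. Matches to the ETS-type motif GAGGAA, the STAT palindrome TTCNNNGAA and the AP-1 type motif TGANTCA are marked likewise. The shorter ETS core GGAA was not searched for by itself. The windows lie at chrX:1336535-1336784 on the plus strand, chr10:6062368-6062617 on the minus strand and chr3:122055112-122055361 on the plus strand, the last being the first of 2 annotated CD86 start sites.
IL3RA: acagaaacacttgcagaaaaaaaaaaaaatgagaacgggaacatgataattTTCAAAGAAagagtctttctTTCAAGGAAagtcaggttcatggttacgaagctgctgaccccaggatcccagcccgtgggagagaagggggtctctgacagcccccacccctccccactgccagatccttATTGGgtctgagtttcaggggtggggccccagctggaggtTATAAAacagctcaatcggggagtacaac
IL2RA: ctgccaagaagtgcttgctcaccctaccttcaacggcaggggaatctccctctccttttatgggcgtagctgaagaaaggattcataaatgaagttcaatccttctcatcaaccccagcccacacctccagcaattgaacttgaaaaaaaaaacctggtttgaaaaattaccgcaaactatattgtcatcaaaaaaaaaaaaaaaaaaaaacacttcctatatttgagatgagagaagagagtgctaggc
CD86: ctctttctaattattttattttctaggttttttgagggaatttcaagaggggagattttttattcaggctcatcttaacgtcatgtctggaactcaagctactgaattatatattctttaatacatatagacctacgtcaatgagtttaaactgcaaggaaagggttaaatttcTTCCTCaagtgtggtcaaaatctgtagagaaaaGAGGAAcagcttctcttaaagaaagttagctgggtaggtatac

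The search covered these bases and the 50 that follow the start site, 300 in all, and all 10 genes matched the table of 35093 promoters. TTCNNNGAA occurred 3 times in the IL3RA window, at -199, -179 and 13 from the start site, and 16 of all promoters (0.0456%) held at least 3. That cutoff is IL3RA's own count, and IL3RA was shown for its fold change, so this share does not measure enrichment. No such share was computed for the other motifs. At least 1 TTCNNNGAA match was found for 2 of the 10 genes, IL3RA and CD96, and in 7.7% of all promoters. GAGGAA, of the kind SPI1 binds, occurred in the windows of 3 of the 10 genes and in 27.9% of all promoters, with 3 matches at the first CD86 start site. Of the motifs searched, the IL2RA window held a single match, CCAAT at 25. CCAAT occurred in 34.6% of all promoters and for 4 of the 10 genes. GGGCGG was found for 4 of the 10 genes against 44.9% of all promoters, TATAAA for 2 against 11.5%, and TGANTCA for none against 7.7%. GC content ranged from 34.0% for CLEC12A to 79.0% for CD47, around a median of 58.7% over all promoters. IL3RA, IL2RA and CD86 were at 50.0%, 41.7% and 37.0%. These matches describe letters only, and no binding was measured.

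Of the 10 antigens, KIT, IL3RA, IL2RA, CD44 and CD86 rose with WNK463, none fell, CD38, CD47 and CLEC12A did not pass the test, and CD34 and CD96 were too low to be tested. The test was edgeR's quasi-likelihood test over 11973 genes, with Benjamini-Hochberg adjusted p below 0.05. The response to WNK463 was broad, so that 35.5% of all tested genes were higher and 35.3% lower at this threshold. The 5 higher genes among 8 tested must be read against that background. With an additional log2 fold change of at least 1, IL3RA and CD86 were called higher and none lower, beside 9.62% of all tested genes higher and 5.55% lower. The 3 WNK463 samples lay above the 3 Ctrl samples for the same 5 antigens, a separation seen for 37.1% of all tested genes. The median log2 fold change of the 8 tested antigens was 0.48, against 0.02 over all tested genes. Changes are relative to TMM scaling. Scaling by total counts added 0.15 to the median over all genes on the log2 scale and moved the shares of higher and lower genes to 46.1% and 26.1%.

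Marker genes of the labelled cell type, AML, were expressed, and nothing particular to the line MV4-11 was checked. All 8 myeloid leukaemia markers were tested, with summed TPM of 896 to 964 in Ctrl and 1134 to 1176 in WNK463. This sum is on the TPM scale, while the calls below are on the TMM scale, and the scales differ. SPI1 averaged 297 TPM in Ctrl and 339 TPM in WNK463, with a TMM log2 fold change of 0.002. The list was divided, since 4 rose, 3 fell and 1 did not pass, beside 35.5% of all tested genes higher and 35.3% lower. MPO was low and fell from a mean of 4.34 to 0.922 TPM (log2 -2.50). CD33 (-0.38) and FLT3 (-0.20) fell too, and the FLT3 call held in 11 of 15 alternatives. The 6 T and NK markers and the 4 B markers averaged under 1 TPM each. Of 8 macrophage markers 4 were tested and 3 rose (C1QA, C1QB and C1QC). The summed TPM of the 8 was 3.82 to 4.72 in Ctrl and 37.1 to 41.2 in WNK463, while MSR1, CD163 and MRC1 had at most 1 count in any sample. The other tested macrophage marker, MARCO, did not pass (log2 -0.27, edgeR adjusted p = 0.49). VSIG4, too low to be tested, had 0 to 3 counts in Ctrl and 7 to 11 in WNK463. Of the tested macrophage markers, only C1QA, C1QB and C1QC thus rose beside CD86, IL3RA and IL2RA. The part of macrophage markers in those increases was not examined. Among erythroid and megakaryocyte markers ITGA2B rose from 8.60 to 26.3 TPM, and 4 of the 6 had 0 counts throughout. Of 7 stromal and epithelial markers 2 were tested, PDGFRB higher (log2 1.12) and KRT18 lower (-0.68).

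**Figure D1:**
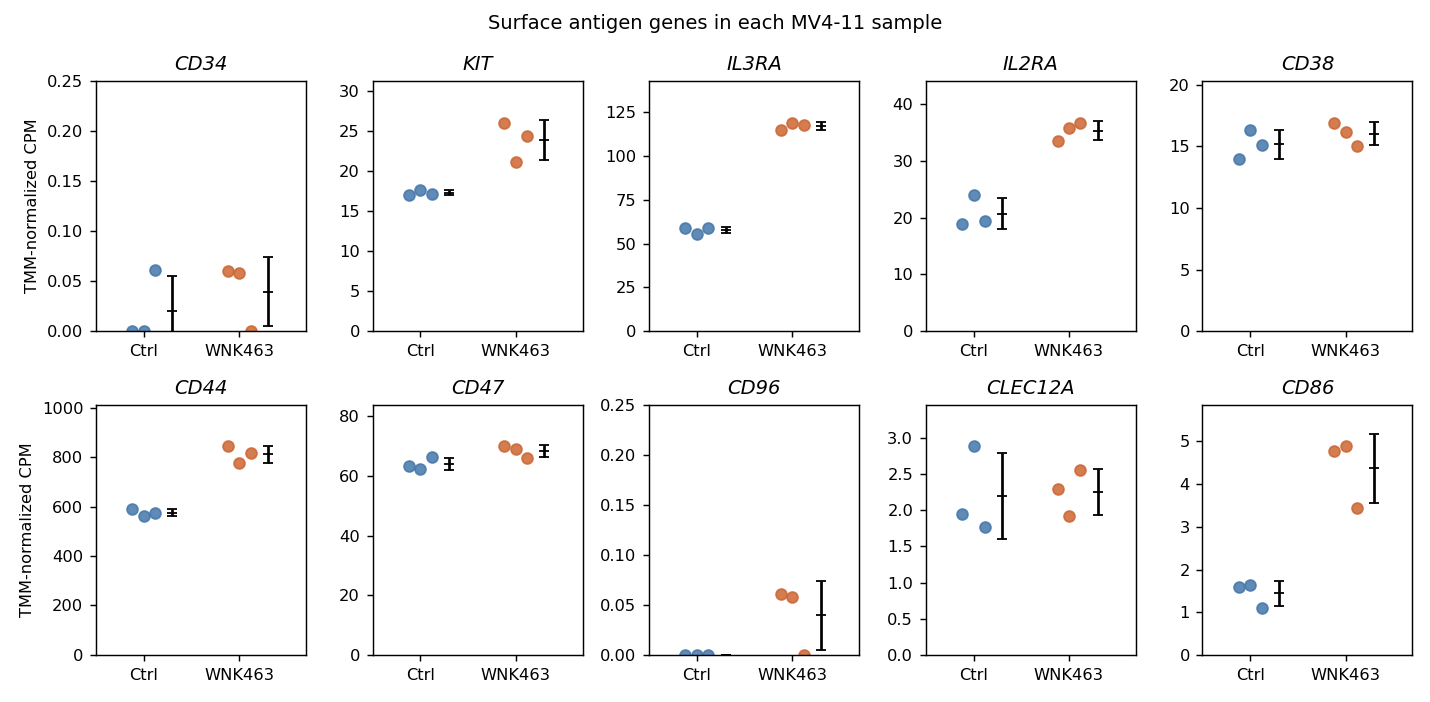
TMM-normalized CPM (counts scaled to a common library size, linear axes from 0) of the 10 antigen genes in the 3 Ctrl and 3 WNK463 samples; points are samples and bars are the mean with 1 SD. The groups are apart for KIT, IL3RA, IL2RA, CD44 and CD86, whereas CD34 and CD96 stay at 0 or 1 count per sample.

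CD34, the sialomucin that defines haematopoietic progenitors, was practically absent from these cells. Its counts were 0, 0 and 1 in Ctrl and 1, 1 and 0 in WNK463. The floor of 3 counts corresponds to 0.174 to 0.206 CPM in these libraries, and both groups stayed under it, so no fold change is given. CD34 (ENSG00000174059) lies on chromosome 1 (207880972 to 207911402, minus strand, GRCh38).

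KIT, the receptor tyrosine kinase for stem cell factor, was present at a moderate level and rose. It gave 17.0, 17.6 and 17.1 CPM in Ctrl and 26.0, 21.2 and 24.4 CPM in WNK463. The Ctrl samples were nearly identical, the WNK463 samples were spread more widely, and the groups did not overlap. The difference was 1.38-fold (log2 0.47, SE 0.09, 95% interval 0.27 to 0.66, edgeR adjusted p = 2.4e-04). The KIT gene (ENSG00000157404) lies on chromosome 4 (54657918 to 54740715, plus strand).

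IL3RA, the ligand-binding alpha chain of the interleukin-3 receptor, doubled in RNA level. It measured 59.1, 55.7 and 58.8 CPM in Ctrl and 114.9, 119.1 and 118.0 CPM in WNK463. Replicates were tight in both groups and the groups lay far apart. The fold change was 2.03 (log2 1.02, SE 0.06, 95% interval 0.88 to 1.15, edgeR adjusted p = 1.7e-10), and only 9.50% of tested genes had a larger log2 fold change. Its interval includes a log2 fold change of 1, so its call at that threshold is narrow. IL3RA (ENSG00000185291) lies in the pseudoautosomal region at 1336616 to 1382689 on X and at the same positions on Y. The table held 2 rows with identical counts for it, whose sum is given as the level, while the test used 1 row. No source used here states whether the rows divide the reads or repeat them. If they repeat them, every level of IL3RA is lower by a factor of 2 and the fold change is the same.

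IL2RA (CD25), the alpha chain of the interleukin-2 receptor, also rose. Its values were 18.8, 23.9 and 19.4 CPM in Ctrl and 33.5, 35.8 and 36.7 CPM in WNK463. Ctrl 2 was the highest of its group but remained below every WNK463 sample. The difference was 1.71-fold (log2 0.77, SE 0.09, 95% interval 0.58 to 0.96, edgeR adjusted p = 5.7e-07). IL2RA (ENSG00000134460) lies on chromosome 10 (6010689 to 6062370, minus strand), and an exon of an antisense gene overlaps it on the other strand. The strand setting of the counting is not given in the sources used here, so reads of overlapping exons on opposite strands could not be assigned with certainty.

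CD38, an ectoenzyme that consumes NAD+ and is often low on primitive leukaemic cells, did not pass the test. Its levels were 14.0, 16.3 and 15.1 CPM in Ctrl and 16.9, 16.2 and 15.0 CPM in WNK463. The groups overlapped. The fold change was 1.06, with a 95% interval of 0.916 to 1.23 (log2 0.08, SE 0.10, edgeR adjusted p = 0.46). With total counts as the scale it passed at a log2 fold change of 0.24 (edgeR adjusted p = 0.044). The CD38 gene (ENSG00000004468) lies on chromosome 4 (15778275 to 15853230, plus strand).

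CD44, the hyaluronan receptor through which leukaemic cells adhere to the marrow niche, was by far the most abundant of the 10 and rose further. It measured 588, 562 and 575 CPM in Ctrl and 843, 774 and 816 CPM in WNK463. No WNK463 sample came near the Ctrl range. The increase was 1.41-fold (log2 0.50, SE 0.05, 95% interval 0.40 to 0.59, edgeR adjusted p = 2.4e-08). CD44 (ENSG00000026508) lies on chromosome 11 (35138870 to 35232402, plus strand), where exons of CD44-AS1 overlap it on the other strand.

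CD47, the ligand of SIRPA that restrains phagocytosis by macrophages, did not pass the test. It gave 63.3, 62.5 and 66.4 CPM in Ctrl and 69.9, 69.0 and 66.2 CPM in WNK463. WNK463 3 fell just under Ctrl 3, so the groups overlapped narrowly. The fold change was 1.07, with a 95% interval of 0.982 to 1.16 (log2 0.09, SE 0.06, edgeR adjusted p = 0.15). The call depended on the scale. With total counts the log2 fold change was 0.25 (edgeR adjusted p = 9.7e-04), and limma on log2(TPM + 1) gave 0.22 (adjusted p = 0.036). CD47 (ENSG00000196776) lies on chromosome 3 (108043094 to 108091862, minus strand).

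CD96, a receptor of PVR and NECTIN1, is also found on T and NK cells. It was counted 0 times in each Ctrl sample and 1, 1 and 0 times in the WNK463 samples. Both groups were under the floor and no fold is given. The gene (ENSG00000153283) lies on chromosome 3 (111292719 to 111665750, plus strand).

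CLEC12A (CLL-1), an inhibitory C-type lectin receptor of myeloid cells, was low and gave no resolvable difference. It stood at 1.95, 2.88 and 1.77 CPM in Ctrl and 2.30, 1.92 and 2.55 CPM in WNK463, from 29 to 42 counts per sample. The groups overlapped fully. The fold change was 1.03 with a wide 95% interval of 0.692 to 1.53 (log2 0.04, SE 0.27, edgeR adjusted p = 0.89). Its sign turned with the unit, the deposited TPM giving a log2 difference of -0.13 with limma. The counts behind 1 TPM, relative to the median gene of the sample, were 0.362 to 0.502 in Ctrl and 0.527 to 0.559 in WNK463 for this gene. CLEC12A (ENSG00000172322) lies on chromosome 12 (9951316 to 9995694, plus strand), and exons of CLEC12A-AS1 and of CLEC1B overlap it on the other strand. CLEC1B itself had 0 to 3 counts per sample.

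CD86, the ligand of CD28 and CTLA4, had the lowest TPM of the tested antigens in Ctrl and the largest fold change. It measured 1.58, 1.65 and 1.10 CPM in Ctrl and 4.77, 4.88 and 3.45 CPM in WNK463, from 26, 24 and 18 counts and 79, 84 and 54 counts. Each WNK463 sample was above the highest Ctrl sample, and the third sample was the lowest of both groups. The increase was 3.03-fold (log2 1.60, SE 0.26, 95% interval 1.06 to 2.15, edgeR adjusted p = 2.5e-05). Among tested genes 4.38% had a larger log2 fold change. The low counts make this the least precise of the 5 increases. CD86 (ENSG00000114013) lies on chromosome 3 (122055366 to 122121139, plus strand).

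**Figure D2:**
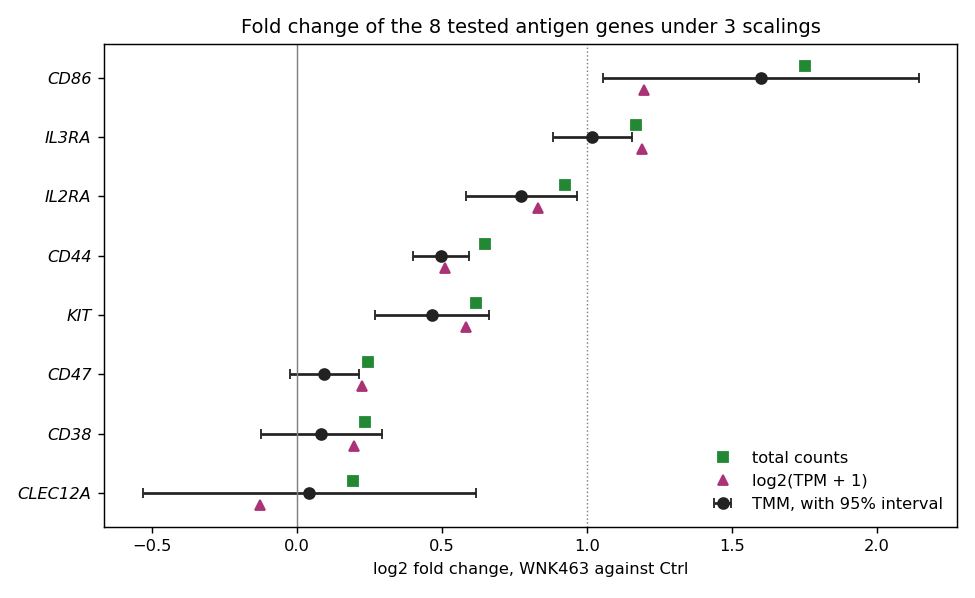
Log2 fold change (WNK463 against Ctrl) of the 8 tested antigens with TMM scaling and its 95% interval, and the same difference with total counts and from log2(TPM + 1). The solid line is 0 and the dotted line is 1; KIT, CD44, IL2RA, IL3RA and CD86 lie above 0 on every scale, and CLEC12A is on either side of it.

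Levels of different genes are comparable only per length, for which the deposited TPM (read abundance corrected for transcript length and depth) were used. In Ctrl the order was CD44 (mean 432 TPM ± 12.8, SD, n = 3), IL3RA (70.0 ± 1.79), CD47 (46.7 ± 3.71), IL2RA (14.7 ± 2.51), KIT (6.21 ± 0.191), CD38 (5.67 ± 1.04), CLEC12A (3.62 ± 0.359) and CD86 (1.67 ± 0.685). KIT and CD38 were not separated in this order, since their TPM ranges in Ctrl overlapped. CD34 and CD96 averaged 0.015 and 0 TPM. With WNK463 the levels were 617 ± 31.6 TPM for CD44, 162 ± 3.70 for IL3RA, 54.8 ± 4.77 for CD47, 26.8 ± 0.970 for IL2RA, 9.82 ± 0.990 for KIT, 6.60 ± 0.639 for CD38, 5.04 ± 0.833 for CD86 and 3.23 ± 0.405 for CLEC12A. CD86 thus stood above CLEC12A after treatment and below it in Ctrl, and its WNK463 samples did not overlap those of CLEC12A or CD38. By mean TPM over the table, IL3RA moved from rank 2529 to rank 934 and CD44 from rank 291 to rank 190. From 1 row in place of 2, IL3RA was at 35.0 ± 0.896 TPM in Ctrl, below CD47, and at 81.2 ± 1.85 TPM in WNK463, above CD47, with ranks 4585 and 2241.

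The receptors among these antigens act with ligands, partner chains and adaptors. A list of 80 such genes was followed, of which 56 were tested, 28 rose, 16 fell and 12 did not pass, and their median log2 fold change was 0.16 against 0.02 over all tested genes. The shares of higher and lower genes are to be set against the 35.5% and 35.3% given above. The groups of this list are described in turn.

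Of 7 genes around KIT, 6 were tested. The adaptor GRB2 (log2 fold change 0.50, adjusted p = 8.6e-09), the ubiquitin ligase CBL (0.26) and the kinase LYN (0.21) rose, and the adaptor SHC1 fell (-0.48, adjusted p = 2.0e-06). LYN did not pass when TPM were tested with limma (0.16, adjusted p = 0.16). PTPN11 (0.10) and SH2B3 (-0.03) did not pass. KITLG, the ligand of KIT, had 8 to 13 counts in Ctrl and 0 to 4 in WNK463 and was not tested.

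Around the interleukin-3 and interleukin-2 receptors 15 of 20 genes were tested, 9 rose and 2 fell. CSF2RA, the alpha chain of the GM-CSF receptor, rose by a log2 fold change of 1.07 (adjusted p = 3.0e-09), beside 1.02 for IL3RA. Like IL3RA it is pseudoautosomal, with 2 identical rows. CSF2RB, the beta chain that IL3RA and CSF2RA share, rose too (log2 0.29, adjusted p = 6.0e-04). IL2RG, the common gamma chain, had the largest increase of this group (log2 2.28, adjusted p = 2.5e-12), from 8.51 to 47.8 TPM, while the beta chain IL2RB did not pass (0.10, adjusted p = 0.67). The receptor-bound kinase JAK2 (1.22) rose, JAK3 (0.07) did not pass, and JAK1 fell slightly (-0.12, adjusted p = 0.035). The JAK1 call was lost with the replicate block (adjusted p = 0.052), with a stricter filter and when Ctrl replicate 3 or WNK463 replicate 2 or 3 was left out, and its sign turned with total counts (0.029) and with TPM (0.074). STAT5A (0.28) rose and STAT5B (-0.20) fell, the latter not passing with total counts (-0.05) or TPM (-0.02). STAT factors are known to induce SOCS1, SOCS2, SOCS3, CISH and PIM1. Of these, SOCS2 (1.27), PIM1 (1.17), SOCS3 (0.66) and CISH (0.17) rose, and SOCS1 (-0.38) did not pass. CISH did not pass when Ctrl replicate 2 or 3 or WNK463 replicate 3 was left out (edgeR adjusted p of 0.058 to 0.077). IL15RA (-0.31) did not pass either. The ligand genes IL3, IL2 and IL5 and the receptor gene IL5RA had 0 counts in all 6 samples, and CSF2 had at most 1.

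Of 8 genes around CD47, 7 were tested, 2 rose and 4 fell. SIRPA, the receptor of CD47, rose slightly (log2 0.22, adjusted p = 5.1e-04), as did PTPN6, the phosphatase it recruits (0.16, adjusted p = 0.0043). The related receptors SIRPB1 (-1.70) and SIRPG (-2.34) fell. These 3 genes are close in sequence and the authors' counting could have split reads among them, so their values are uncertain. CALR, a pro-phagocytic signal when exposed on the cell surface (log2 -1.20, adjusted p = 2.0e-13), and its receptor LRP1 (-1.30) fell, LRP1 without passing in TPM (-0.29). QPCTL, the enzyme that modifies CD47 for SIRPA binding, did not pass (0.06).

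Partners of CD96 and CD86 were mostly low, with 5 of 10 tested. PVR, a ligand of CD96, fell (log2 -0.93, adjusted p = 3.2e-10) and the other ligand NECTIN1 did not pass (0.04). ICOSLG fell (-0.45). CD226 passed (1.57, adjusted p = 0.015) on 1 to 11 counts in Ctrl and 12 to 18 in WNK463, and was lost with DESeq2 (adjusted p = 0.055) and when Ctrl replicate 2 or 3 or WNK463 replicate 2 was left out (adjusted p of 0.053 to 0.078). Its fitted log2 fold change was 2.80 without Ctrl replicate 1, which held 11 of the Ctrl counts, and 1.13 without Ctrl replicate 2. CD28, the receptor of CD86, had 0 to 1 counts in Ctrl and 11 to 14 in WNK463 and passed the test, but Ctrl was under the floor and no fold is given. CD80, the other ligand of CD28, had 0 to 1 counts in either group.

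Of 19 genes around CD38, CD44 and CD34, 13 were tested, 4 rose and 6 fell. PECAM1, the ligand of CD38 (log2 0.80), NAMPT (1.00) and NMNAT1 (0.37), which make NAD+, and the hyaluronan receptor HMMR (0.40) rose. BST1, the paralog of CD38 (-1.33), the membrane linkers EZR (-1.05), RDX (-0.53) and MSN (-0.39), which bind the tail of CD44, the sialomucin PODXL (-0.44) and the adaptor CRKL (-0.21) fell. CRKL did not pass with total counts (-0.06) or TPM (-0.02). Among 8 genes of lectin-like and inhibitory receptors related to CLEC12A, only CLEC2D (1.12) and CD300A (1.22) were tested, and both rose.

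Enzymes that cut surface proteins were tested in full, 8 of 8, since shedding separates RNA from surface protein for antigens such as CD44 and KIT. MMP9 rose from 6 to 10 counts in Ctrl to 84 to 112 in WNK463 (log2 3.61, adjusted p = 5.7e-09), and MMP14 (0.93), ADAM17 (0.54), ADAM10 (0.33) and NCSTN (0.16) rose as well. APH1A fell (-0.46) and PSENEN (-0.12) did not pass. Shedding was not measured.

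**Figure D3:**
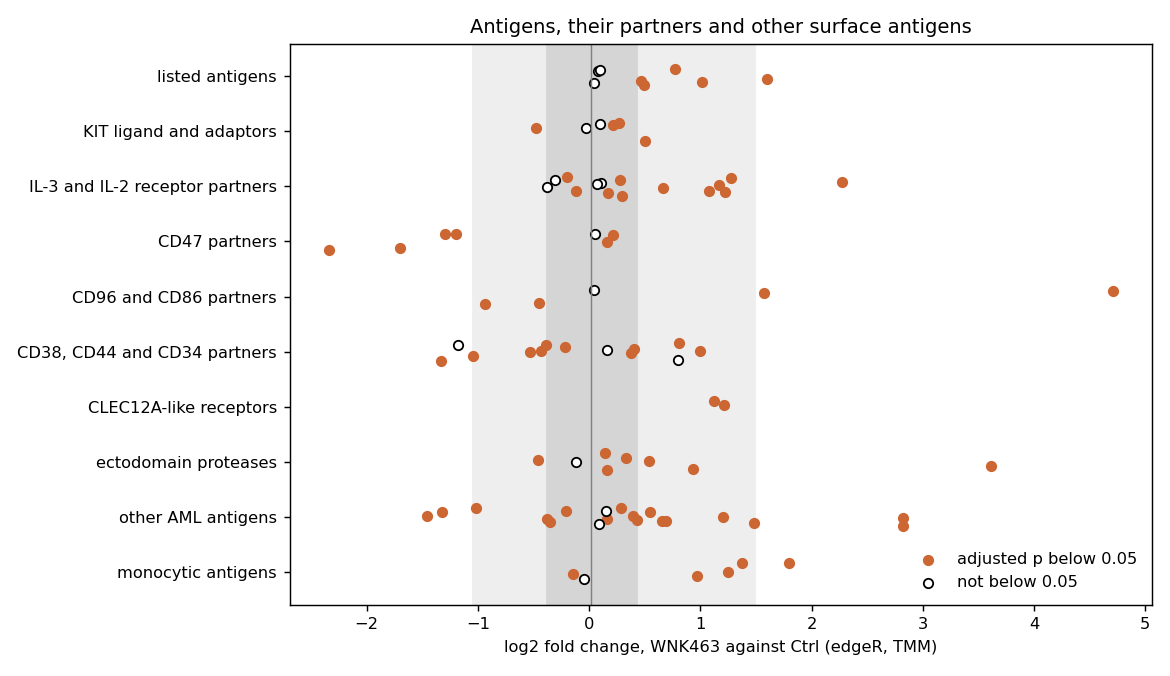
Log2 fold change (WNK463 against Ctrl, TMM) of each tested gene in the antigen list and the partner and comparison lists; filled points have an adjusted p below 0.05 and vertical scatter within a list is arbitrary. The dark band spans the 25th to 75th percentile of all tested genes (-0.38 to 0.43) and the light band the 5th to 95th (-1.04 to 1.50); 1 listed antigen, CD86, lies beyond the light band.

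Ratios within a sample set a receptor chain against its partner and do not depend on scaling between samples. IL3RA to CSF2RB, in TPM, was 2.91, 2.27 and 2.63 in Ctrl and 4.41, 4.27 and 4.72 in WNK463. All WNK463 ratios exceeded all Ctrl ratios, with means of 2.60 ± 0.317 and 4.47 ± 0.232 (SD, n = 3; two-sided exact permutation p = 0.10, adjusted 0.15 over 3 ratios). From 1 IL3RA row these means were 1.30 ± 0.159 and 2.23 ± 0.116, with the same log2 difference of 0.79. IL2RA to IL2RG was 1.42, 2.36 and 1.53 in Ctrl and 0.509, 0.581 and 0.594 in WNK463. Here the WNK463 ratios were all below the Ctrl ratios, a log2 difference of -1.62 (two-sided exact permutation p = 0.10, adjusted 0.15). CD47 to SIRPA was 0.356, 0.305 and 0.364 in Ctrl and 0.309, 0.287 and 0.307 in WNK463, which overlapped (two-sided exact permutation p = 0.30, adjusted 0.30). With 3 samples against 3, 0.10 is the smallest p this test allows. The antigens and partner lists behind these 3 ratios were themselves chosen with earlier results of these data known. IL3RA to CSF2RA, chosen after the values were seen and not tested, averaged 1.97 ± 0.178 in Ctrl and 1.85 ± 0.106 in WNK463. Ratios with CD34 or CD80 were not formed, because those genes had at most 1 count per sample.

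**Figure D4:**
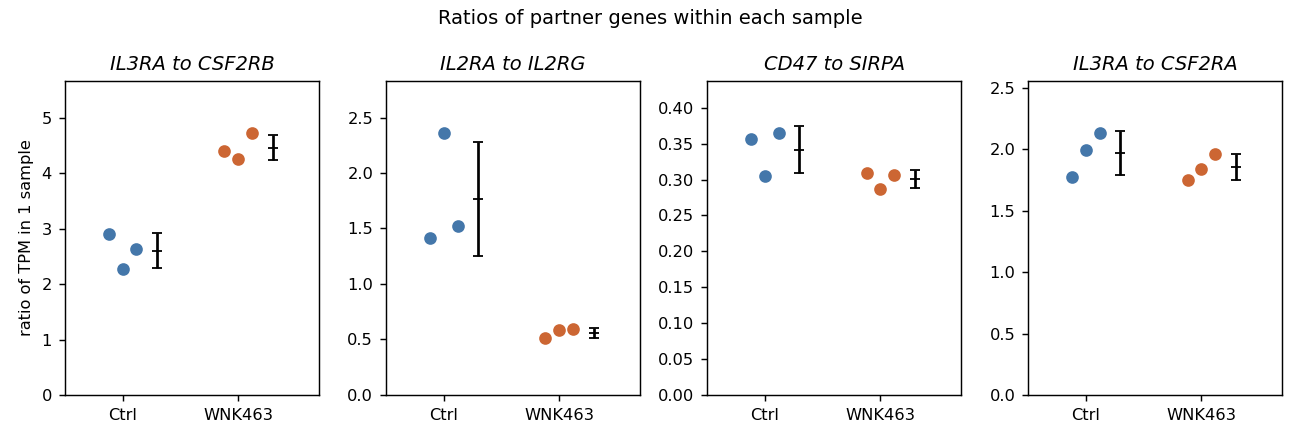
Ratio of TPM of 2 genes within each sample (linear axes from 0), with the mean and 1 SD beside the 3 samples of each group. The IL3RA to CSF2RB ratio is higher, and the IL2RA to IL2RG ratio lower, in each WNK463 sample than in any Ctrl sample, whereas the CD47 to SIRPA and IL3RA to CSF2RA ratios overlapped between groups.

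A further 35 surface antigens of AML and of monocytic cells placed the 10 genes among their neighbours. Of these 25 were tested, 15 rose and 7 fell, to be read beside the 35.5% of all tested genes that were higher and the 35.3% that were lower, as are the counts of the smaller lists here. Among 24 AML antigens the 3 increases with the smallest p were PTPRC (CD45; log2 1.20, adjusted p = 1.5e-11), CD4 (0.66, adjusted p = 3.3e-09) and IL1RAP (0.54, adjusted p = 9.5e-09), and the 3 decreases were CXCR4, the receptor that retains cells in the marrow (-1.01, adjusted p = 5.1e-11), the inhibitory receptor LILRB4 (-0.35, adjusted p = 8.8e-06) and CD33 (-0.38, adjusted p = 1.5e-05). The CD33 call held in 14 of 15 alternatives, with log2 fold changes of -0.41 to -0.15. Larger changes of less abundant genes are left out by this choice. Among them were HAVCR2 (2.82, 9 to 12 counts in Ctrl) and CD52 (2.82, 8 to 41 counts in Ctrl), which rose. ANPEP (-1.46, 20 to 27 counts in Ctrl) and NCAM1 (-1.32, 15 to 21 counts in Ctrl) fell. Of 11 monocytic antigens 6 were tested. The scavenger receptor CD36 (1.80, adjusted p = 3.2e-14), the receptor CSF1R (0.97, adjusted p = 1.4e-09) and the integrin ITGAX (1.38, adjusted p = 6.1e-09) led the 4 that rose. CD68 was the only 1 that fell (-0.14, adjusted p = 0.022), and it did not pass with TPM (-0.13) or when Ctrl replicate 1 or WNK463 replicate 2 or 3 was left out (adjusted p of 0.051 to 0.11), while its sign turned with total counts (0.0075). CD14 had 0 to 3 counts in Ctrl and 2 to 10 in WNK463, and CD163 and MRC1 had at most 1.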

How the data were processed

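RNA of 3 Ctrl and 3 WNK463 samples of MV4-11 cells was captured as mRNA and sequenced on an Illumina Novaseq X Plus. The authors deposited 1 table with whole-number estimated counts per gene and sample, without normalization, and with TPM values and group mean TPM. Its log2 fold change, p-value and FDR columns hold the authors' own comparison and were not used. The submitters' processing notes name fastp, Bowtie2, HISAT2, StringTie, RSEM, DESeq2, edgeR and GRCh38. Versions, annotation and strand setting are not given in the sources used here.

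Counts were tested with edgeR 4.0.16 in R 4.3.3 (filterByExpr, TMM, quasi-likelihood test, Benjamini-Hochberg over 11973 genes). The SE was obtained as the size of the log2 fold change over the root of the F statistic. CPM use TMM library sizes. Rows that share a symbol and identical counts were summed for levels. Intervals from the fit cover the spread between samples, and the floor of 3 counts covers counting error only. Gene positions came from GENCODE on GRCh38 and promoters from RefSeq. The antigens and all lists were chosen with earlier results of these data known. The genes named were all 10 antigens, partners that passed (1 is not reported here), KITLG, CSF2RB, IL2RG, SIRPA and CD80 whatever their value, and, of the other antigen lists, the 3 per direction with the smallest p; the other genes named were chosen after their values were seen. Alternatives were DESeq2 1.42.0, limma 3.58.1 on log2(TPM + 1) and log2(TPM + 0.1), total counts, other filters, glmTreat, the replicate number as a block and each sample left out. The edgeR, DESeq2 and limma functions were tested on simulated counts, and the ratio and promoter steps were not.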

Additional observations from a re-analysis of the deposited data

How the results depend on the processing

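The increases of KIT, IL3RA, IL2RA, CD44 and CD86 kept their direction and stayed past the adjusted p in all 15 alternatives each, with log2 fold changes of 0.40 to 0.65, 0.98 to 1.21, 0.70 to 0.93, 0.47 to 0.65 and 1.20 to 1.75. Without 1 replicate the number of antigens called higher ranged from 1 to 2. It was 1 without Ctrl replicate 2, where IL3RA dropped to a log2 fold change of 0.98. With glmTreat, which tests against a log2 fold change of 1, it was 0, with adjusted p of 0.0504 for CD86 and 1 for IL3RA. The other antigens that fell numbered 7, and 3 with each limma fit on TPM. With total counts CD38 passed at 0.24 (adjusted p = 0.044) and CD47 at 0.25 (adjusted p = 9.7e-04), and CD47 passed at 0.22 with log2(TPM + 1), with and without a filter on TPM, and at 0.23 with log2(TPM + 0.1). CLEC12A turned to -0.13 with log2(TPM + 1), with and without a filter, and to -0.16 with log2(TPM + 0.1), and ranged from -0.10 to 0.26 without 1 replicate. Signs also turned with total counts for SH2B3 (0.13), JAK1 (0.029), PSENEN (0.032), FCGR1A (0.10) and CD68 (0.0075), with log2(TPM + 1) for SH2B3 (0.17), JAK1 (0.074), PSENEN (0.064) and FCGR1A (0.14), both filters on TPM alike, and with log2(TPM + 0.1) for SH2B3 (0.17), JAK1 (0.075), PSENEN (0.065) and FCGR1A (0.14). JAK3 was -0.11 without WNK463 replicate 2, and without 1 replicate QPCTL ranged from -0.016 to 0.11 and NECTIN1 from -0.014 to 0.089, both lowest without Ctrl replicate 3. Expressed as CPM in place of TPM, the mean log2 difference moved from 0.66 to 0.46 for KIT, from 1.21 to 1.02 for IL3RA, from 0.23 to 0.095 for CD47 and from -0.17 to 0.060 for CLEC12A. With 1 of the 2 IL3RA rows, an alternative chosen after seeing the data, as was summing the rows for the test, its mean TPM was 35.0 in Ctrl and 81.2 in WNK463. The cause of these changes was not tested. Same-numbered samples did not deviate together (correlations 0.01, 0.03 and -0.07), so the replicate numbers were taken as names. With the replicate block 5 antigens were higher, 0 lower and 2 called, as without it, and JAK1 alone among the named genes was lost. No antigen passed as lower in any alternative. CD34 and CD96 could not be fitted with the filters on low counts, and at 18 to 42 counts per sample CD86 in Ctrl and CLEC12A carry the widest intervals.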
